A study of Sus scrofa with 37 samples.

Results

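The genes described here mark fibro-adipogenic progenitors, the resident connective tissue cells of muscle, or are transcription factors and surface proteins linked to wounding. They were chosen by name, with their levels and changes in these same data already known. Levels are in CPM, counts per M counts of the library after its total was scaled by the TMM method. The list held 10 symbols (PRRX1, PDGFRA, SOX9, RUNX1, OSR1, TWIST2, TCF21, DCN, PDPN and FBLN1), of which 8 were matched to a row among the 9418 rows of the count table. All 8 passed the filter on low counts, among 9411 genes tested, and TWIST2 and TCF21 are not analysed here. RNA was sequenced from muscle of the Bama minipig, a small Chinese breed, after contusion, a blunt injury. There were 4 libraries at each of 7 times (4 h to 24 h in steps of 4 h, and 48 h) and 9 control libraries. The treatment field reads mechanical damage for the controls too, and neither age, sex nor the state of control muscle is stated. The design names 8 animals for 37 libraries but not which libraries share one, so every p-value below measures spread between libraries and may be too small.

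Fibro-adipogenic progenitors lie between muscle fibres, carry the receptor PDGFRA and lay down matrix. In mice they multiply after injury, feed signals to muscle stem cells and can turn into fibroblasts or fat cells. PRRX1, OSR1, TWIST2 and TCF21 are transcription factors of embryonic limb and organ mesenchyme that adult connective tissue cells keep. DCN and FBLN1 are matrix proteins these cells secrete. SOX9, the master factor of cartilage, RUNX1, a factor of blood cell formation that is also known from injured and denervated muscle, and PDPN, a membrane mucin, are known to be induced in injured tissue.

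The 8 genes did not move as a group. RUNX1, PDPN and SOX9 rose at 4 h, had their highest means at 8 h and were lower at 48 h than from 8 to 20 h in mean. Their largest fitted change was not at 8 h once sets of libraries, described below, were a term. With that term the largest change of SOX9 was at 4 h, whose libraries share no set with a control. It was 4.52 there and 4.26 at 8 h, with standard errors of 0.82 and 0.69. PRRX1 was lower than in controls at all 7 times, and DCN and FBLN1 fell at 8, 20 and 24 h. The 48 h call of PRRX1 was lost in some fits, given with the gene. OSR1 was called lower at 24 h and at no other time, and PDGFRA was called higher at 8, 16 and 24 h with small changes that depended on single libraries. Calls are from edgeR's quasi-likelihood test, adjusted over all genes at a threshold of 0.05. As the genes were listed with results known, their calls describe them and are no independent evidence.

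At 4 h 3 of the 8 genes were called higher and 1 lower, while 18.3% of all genes were called, 9.22% higher and 9.06% lower. The 8 h test called 4 higher and 3 lower (54% of all genes, 25.8% higher and 28.2% lower), and the 12 h test 3 and 2 (31%, of which 16.3% higher and 14.7% lower). At 16 h 4 were higher and 2 lower (53.1% of all genes, 25.3% higher and 27.8% lower), and at 20 h 3 and 3 (51.5%, with 25.4% higher and 26.2% lower). All 8 were called at 24 h, 4 in each direction (53.9% of all genes, 26.8% higher and 27.1% lower), and 3 at 48 h, 2 higher and 1 lower (20.3%, with 12.8% higher and 7.45% lower). In accounts of single genes and of gene lists below these percentages are the background. Over the 7 times together 7 of 8 were called, PDGFRA being the exception, against 83.2% of all genes. The median log2 change of the 8 genes ran from -0.25 at 24 h to 0.61 at 16 h, beside -0.02 and -0.04 for all genes.

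Some groups did not overlap with the controls at all. At 4 h every library was above all 9 controls for SOX9 alone (2.28% of all genes lay wholly above and 2.44% wholly below). This held for SOX9, RUNX1 and PDPN at 8 h (13.8% above, 12.2% below), 16 h (17.2% and 15.9%) and 20 h (14.3% and 11.8%), for SOX9 and RUNX1 at 12 h (6.04% and 4.46%), and for RUNX1 and PDPN at 24 h (16.4% and 14.7%). Every library was below all controls for FBLN1 at 12 and 24 h and for PRRX1 and DCN at 20 h. At 48 h all 8 genes overlapped with the controls (1.41% of all genes above and 0.818% below). SOX9 has a row in the table only through its counts in injured libraries, as described below.

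Column totals of the table lay between 9.86 and 22.88 M counts, and the smallest level told from none, 3 counts, was 0.108 to 0.378 CPM after TMM scaling. Of 15 fibre markers 8 were measured, with summed levels from 25500 to 144000 CPM over all libraries, and fibroblast identity genes were present in 21 of 22. Libraries within a time differed widely: at 48 h the summed level of 11 leukocyte markers was 716 and 536 CPM in replicates 1 and 3 and 115 and 99 CPM in replicates 2 and 4, beside 48.4 to 114 CPM in the controls. Earlier work on these counts split the libraries by column totals and 3 genes into 5 sets that no label names. The 4 h libraries share no set with a control, and where controls of the same set change a call the value is given with the gene.

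**Figure D1:**
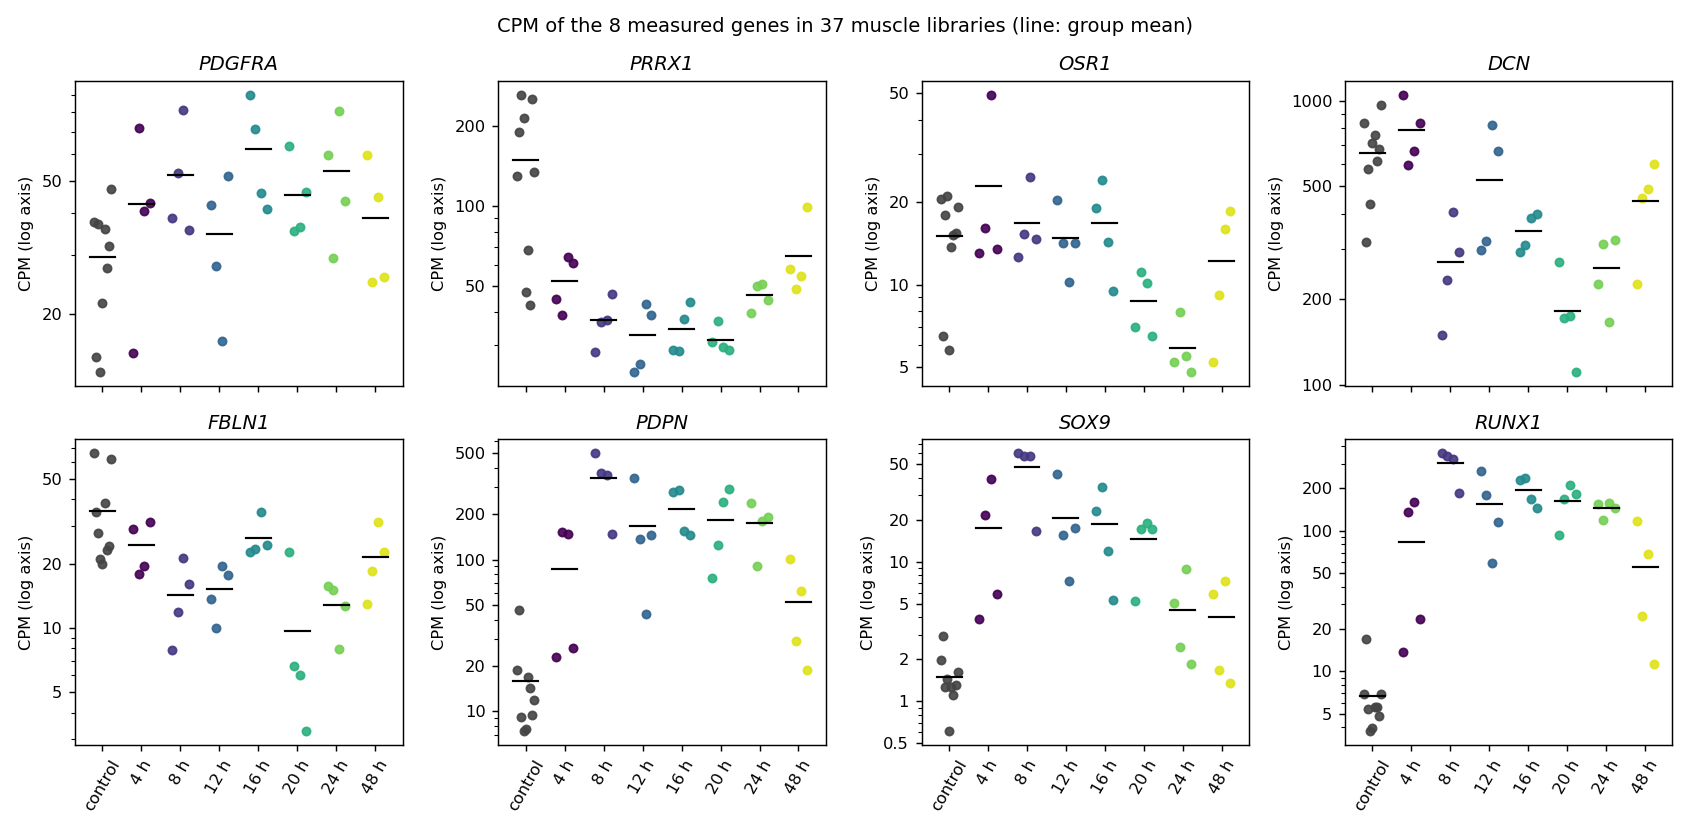
CPM on a log axis for each of the 8 measured genes, 1 point per library, with 9 controls and 4 libraries at each time; horizontal lines are group means. RUNX1, PDPN and SOX9 lie above nearly all controls from 8 to 20 h, while the controls of PRRX1 spread from 42.6 to 262.5 CPM.

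PDGFRA (chromosome 8, 40966568 to 41021440 in Sscrofa11.1) encodes the receptor tyrosine kinase for platelet-derived growth factors that defines progenitors. In the controls it lay between 13.4 and 47.3 CPM with a median of 32.0 CPM. The 16 h libraries read 90.0, 71.1, 46.0 and 41.2 CPM, the highest group mean (62.1 ± 22.8 CPM, SD, n = 4, against 29.7 ± 11.3, n = 9). Only 2 of these 4 exceeded every control. The log2 change was 1.06 ± 0.34 (SE) at 16 h (edgeR adjusted p = 0.00899), 0.81 ± 0.34 at 8 h (0.0449) and 0.84 ± 0.34 at 24 h (0.0365).

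The calls of PDGFRA were the least stable among the 8 genes. At 8 h the call was lost in 12 of 37 fits that left out 1 library, those being controls 2, 4, 5, 7 and 8, 8 h replicates 2 and 3, 16 h replicate 2, 20 h replicate 4, 24 h replicates 1 and 4 and 48 h replicate 3. At 24 h it was lost without controls 2, 4 or 5 or without 24 h replicates 1 or 3. At 16 h it was lost without replicate 1 (edgeR adjusted p = 0.0685, log2 change 0.83). With the library sets as a term none of the 3 passed (0.216 at 8 h, 0.154 at 16 h, 0.102 at 24 h), nor with controls of the same set (0.182, 0.0658 and 0.189).

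Other genes of the ligand and receptor family were lower more often than higher. PDGFD, a ligand of the related receptor PDGFRB, went from 27.8 ± 9.68 CPM (SD, n = 9) to 5.39 ± 1.59 (SD, n = 4) at 8 h (log2 change -2.36 ± 0.31, edgeR adjusted p = 3.58e-07). Of the 6 genes other than PDGFRA, 1 was called higher and 3 lower at 8 h, and 4 lower at 24 h. PDGFC, a ligand of PDGFRA, fell at 8 h (-1.75), 24 h (-1.10) and 48 h (-1.28), and PDGFB fell at 24 h (-1.41).

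PRRX1 (chromosome 4, 80427682 to 80502689) encodes a homeobox factor of limb mesenchyme. Its 9 controls ran from 42.6 to 262.5 CPM with a median of 135 CPM, a spread (coefficient of variation 57.3%) wider than that of 95.6% of the 8367 genes compared. Libraries at 20 h read 30.9, 37.0, 29.4 and 28.6 CPM, all below all controls. Mean levels were 52.2 ± 12.4 CPM (SD, n = 4) at 4 h, 31.5 ± 3.78 at 20 h and 65.1 ± 22.9 at 48 h, against 149 ± 85.6 in the controls (n = 9).

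The log2 change of PRRX1 was -1.51 ± 0.35 (SE) at 4 h (edgeR adjusted p = 0.00385), then -2.01, -2.19, -2.11 and -2.25 ± 0.37 over the 8 to 20 h tests (1.19e-05 at 20 h). It was -1.69 at 24 h and -1.20 ± 0.35 at 48 h (0.0139). At 48 h the call was lost without replicate 1 or replicate 3, whose removal gave adjusted p up to 0.0848. Against the 3 controls of its own library set the 48 h change was -0.35 (edgeR adjusted p = 0.701), and with sets as a term -0.73 (0.225). With only the controls and the 48 h libraries fitted it was -1.19 (edgeR adjusted p = 0.107). The 24 h change was -1.05 (0.308) in the single library of a set with controls.

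In the controls the genes nearest to PRRX1 were not those nearest to DCN. Over the 9 controls the nearest to PRRX1 were HOMER2, GABARAPL1, SMPX, GPAM and MAST2, with mean absolute differences of 0.151 to 0.216 in centred log2 CPM against a median of 0.847 over 8474 genes. SMPX encodes a small protein of striated muscle and HOMER2 a scaffold protein. For DCN the nearest genes were ABI3BP, ECM2, FAP and OGN, which encode matrix proteins and a fibroblast protease, with differences of 0.11 to 0.128.

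Slow fibre genes were low in the controls low in PRRX1. The summed level of 10 slow fibre genes, a list made after these values were seen, was 11100, 22770 and 32020 CPM in controls 7, 6 and 5, where PRRX1 read 42.6, 68.15 and 47.5 CPM. The other 6 controls held 40450 to 141900 CPM of slow fibre genes and 130 to 262.5 CPM of PRRX1. DCN was 615.6, 754.3 and 708.7 CPM in controls 7, 6 and 5, inside its range in the other controls. MYH7, the slow myosin heavy chain, was 2451 CPM in control 7 and 39020 CPM in control 8. All 10 slow fibre genes were called lower at 8, 12, 16, 20 and 24 h, and none of the 10 was at 0. At 48 h replicate 4 had the highest PRRX1 (99.0 CPM) and the highest slow fibre sum (52180 CPM) of the injured libraries. Replicates 1 and 3 of 48 h, however, read 57.9 and 54.55 CPM of PRRX1 at slow fibre sums of 6601 and 6124 CPM, above replicate 2 with 48.85 CPM at 21930 CPM and 20 h replicate 1 with 30.85 CPM at 28660 CPM. The part of fibre type in the change of PRRX1 was not tested. The RefSeq span of PRRX1 overlaps a long non-coding RNA, LOC106510093, and whether the counting used strand is not stated.

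**Figure D2:**
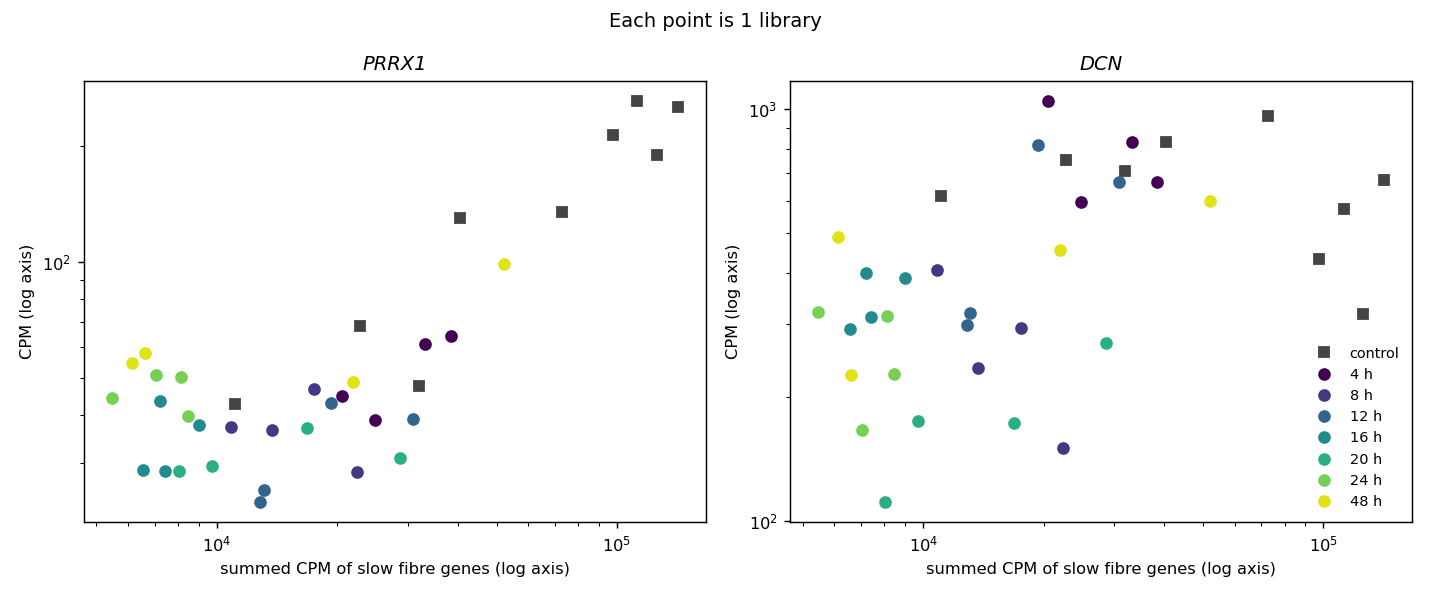
CPM of PRRX1 (left) and DCN (right) against the summed CPM of 10 slow fibre genes, both on log axes, 1 point per library; squares are the 9 controls. Controls with slow fibre sums from 11100 to 32020 CPM lie at 42.6 to 68.15 CPM of PRRX1, in the range of injured libraries, while DCN of the same controls is 615.6 to 754.3 CPM.

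OSR1 (chromosome 3, 118368471 to 118765107, a RefSeq span of 396637 bases, which may be longer than the gene), a zinc finger factor that in mice marks progenitors of connective tissue, had a median of 15.4 CPM in the controls and a range of 5.78 to 21.1 CPM. At 24 h the libraries read 5.21, 7.92, 5.50 and 4.79 CPM, and 3 of the 4 were below every control. OSR1 fell at 24 h by 1.36 on the log2 scale (SE 0.38, edgeR adjusted p = 0.00299). At 20 h the change was -0.79 ± 0.37 (0.0681), which passed without control 2, without control 5 or without 4 h replicate 3. From 4 to 16 h its log2 changes lay between -0.03 and 0.62 and none passed (unadjusted p = 0.0783 to 0.936). One 4 h library, replicate 3, read 49.2 CPM beside 13.0 to 16.1 CPM in the other 3.

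Other mesenchymal transcription factors went both ways. Of 15 measured, 1 was called lower and 1 higher at 4 h, 8 lower and 4 higher at 8 h (28.2% and 25.8% of all genes), and 8 and 2 at 12 h (14.7% and 16.3%). At 16 h 4 were lower and 4 higher, in the 20 h and 24 h tests 8 and 3, and at 48 h 1 and 3. MEOX1, a homeobox factor of the somites, fell at all 7 times, from 14.4 ± 8.52 CPM (SD, n = 9) to 3.29 ± 1.34 (SD, n = 4) at 8 h (-2.13 ± 0.44). MEOX2, its relative, fell by 1.71, and TCF4, a helix-loop-helix factor, by 1.00 at 8 h. SNAI1, a factor of mesenchymal transition, rose at 8 h from 4.42 ± 1.81 to 27.9 ± 18.1 CPM (2.65 ± 0.37, edgeR adjusted p = 9.43e-07).

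DCN (chromosome 5, 91678601 to 91713925) encodes decorin, a small leucine-rich proteoglycan that binds collagen and TGF-beta. Its controls lay between 317.7 and 962.7 CPM with a median of 673.6 CPM. At 4 h the libraries read 1047, 595.5, 666.3 and 831.8 CPM, within or above the controls, and at 8 h 150, 235, 407 and 294 CPM, with 3 of 4 below all controls. At 20 h they read 270, 172.5, 175 and 111 CPM, all below the controls. By 48 h they were 226.5, 455.8, 488.4 and 597.8 CPM and overlapped them again.

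The log2 change of DCN was 0.27 ± 0.29 (SE) at 4 h (edgeR adjusted p = 0.554), -1.27 ± 0.31 at 8 h (0.00106), -1.84 ± 0.32 at 20 h (2.78e-05) and -1.34 ± 0.31 at 24 h (6.41e-04). At 12 h it was -0.31 ± 0.30 (0.441), where replicates 3 and 4 read 819 and 664 CPM and replicates 1 and 2 read 298 and 320 CPM. Replicates 1 and 2 belong to a library set with 4 controls, against which the 12 h change was -0.96 (0.035). The 16 h call (-0.91, 0.0133) was lost with sets as a term (-0.80, 0.112) and with controls of the same set (-0.71, 0.143). From 4 to 8 h DCN fell by 1.53 on the log2 scale (SE 0.35, 0.0024).

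FBLN1 (chromosome 5, 3839498 to 3927178) encodes fibulin-1, a matrix glycoprotein of basement membranes and elastic fibres. It lay between 19.9 and 65.85 CPM in the controls, with a median of 28.0 CPM. At 24 h the libraries read 15.7, 15.1, 7.93 and 12.6 CPM, all below the controls. The log2 change of FBLN1 was -1.31 at 8 h, -1.22 at 12 h, -1.89 ± 0.40 (SE) at 20 h (edgeR adjusted p = 2.46e-04) and -1.46 at 24 h (0.002). At 16 h it read 22.8, 23.4, 35.1 and 24.3 CPM, inside the control range (-0.42 ± 0.36, 0.332). All 4 of those libraries share a library set with controls 1 and 2, and against these 2 controls the 16 h change was -0.91 (0.038). At 24 h only replicate 1 shares a set with controls, and against these its change was -1.40 (0.126). The 12 h call was lost without 12 h replicate 1 or 2 (highest adjusted p = 0.0582) and with sets as a term (0.0696).

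**Figure D3:**
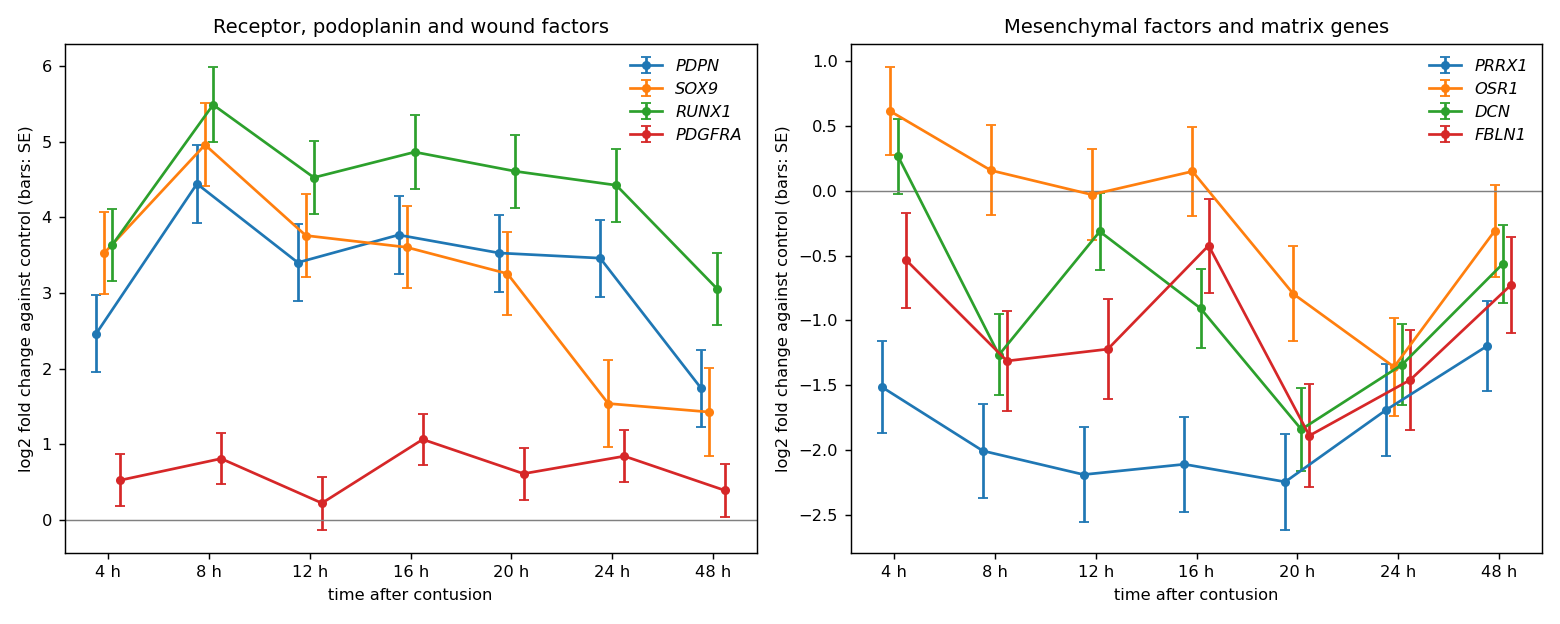
Log2 fold change against control by edgeR, with standard errors, at the 7 times, which are drawn evenly spaced; left the receptor, podoplanin and wound factors, right the mesenchymal factors and matrix genes. RUNX1 reaches 5.49 at 8 h, and DCN and FBLN1 are lowest at 20 h at -1.84 and -1.89.

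Among the 8 genes the 2 matrix genes had the nearest courses. Over the 7 times their log2 changes differed by 0.367 on average, the smallest of the 28 member pairs, while RUNX1 and PRRX1 differed by 6.22. Genes outside the list were nearer, CHRDL1 to DCN (0.153, against a median of 0.936) and RFTN2 to FBLN1 (0.2, against 1.06). DCN and FBLN1 parted at 12 h (-0.31 and -1.22, only FBLN1 called) and at 16 h (-0.91 and -0.42, only DCN called). Among their relatives, 6 of 7 other small leucine-rich proteoglycans were called lower at 8 h (median -2.04) and 6 of 7 at 20 h (median -2.24), beside a median of -0.07 and -0.04 for all genes. ASPN, asporin, fell from 28.0 ± 13.1 (SD, n = 9) to 3.02 ± 1.81 CPM (SD, n = 4) at 8 h (-3.22 ± 0.42, edgeR adjusted p = 2.86e-07). OGN, osteoglycin, fell by 2.67, LUM, lumican, by 2.23, and OMD, osteomodulin, by 2.03. Of 16 fibulin and elastic fibre genes, 9 were lower and none higher at 8 h, and 10 lower and 2 higher at 20 h. ELN, elastin, fell from 119.6 ± 47.6 CPM (SD, n = 9) to 17.25 ± 13.7 (SD, n = 4) at 20 h (-2.80), and LOX, which cross-links elastin and collagen, was called higher in each test from 16 h on (1.94 to 2.45).

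Of 21 other identity genes of progenitors and fibroblasts, 11 were called lower at 8 h and 13 at 20 h (median -0.96 at 8 h), then 12 at 24 h and 3 at 48 h. At 16 h 9 were lower and 1 higher. CD34, a surface sialomucin of progenitors and endothelium, fell from 40.3 ± 16.6 (SD, n = 9) to 9.93 ± 2.49 CPM (SD, n = 4) at 8 h (-2.02 ± 0.28, edgeR adjusted p = 6.06e-07). MFAP5, a microfibril protein, fell by 2.74 at 20 h. In bulk tissue fewer connective tissue cells and less RNA per cell cannot be told apart. Leukocyte markers rose in the same samples, and their part in these falls was not tested.

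Genes of fibroblast activation went both ways. At 8 h 5 of 22 were higher and 10 lower (25.8% and 28.2% of all genes). At 16 h 7 were higher and 1 lower (25.3% and 27.8%), and at 48 h 5 higher and 0 lower (12.8% and 7.45%). The counts called higher at 8 and 16 h were near the shares of all genes. TNC, the wound matrix protein tenascin-C, rose by 3.23 at 8 h and by 4.69 at 16 h. ACTA2, the smooth muscle actin of myofibroblasts and vessel walls, fell by 1.98 at 8 h, and 7 of 10 pericyte and smooth muscle markers were lower then. Of 11 adipogenic genes 3 were higher and 5 lower at 8 h, where the share of all genes called higher was much the same. At 16 h 4 were higher and 2 lower (25.3% and 27.8% of all genes, list median 0.24). At 20 h 6 were lower (26.2% of all genes, list median -1.43). LPL, lipoprotein lipase, was lower at all 7 times (-2.73 at 20 h).

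**Figure D4:**
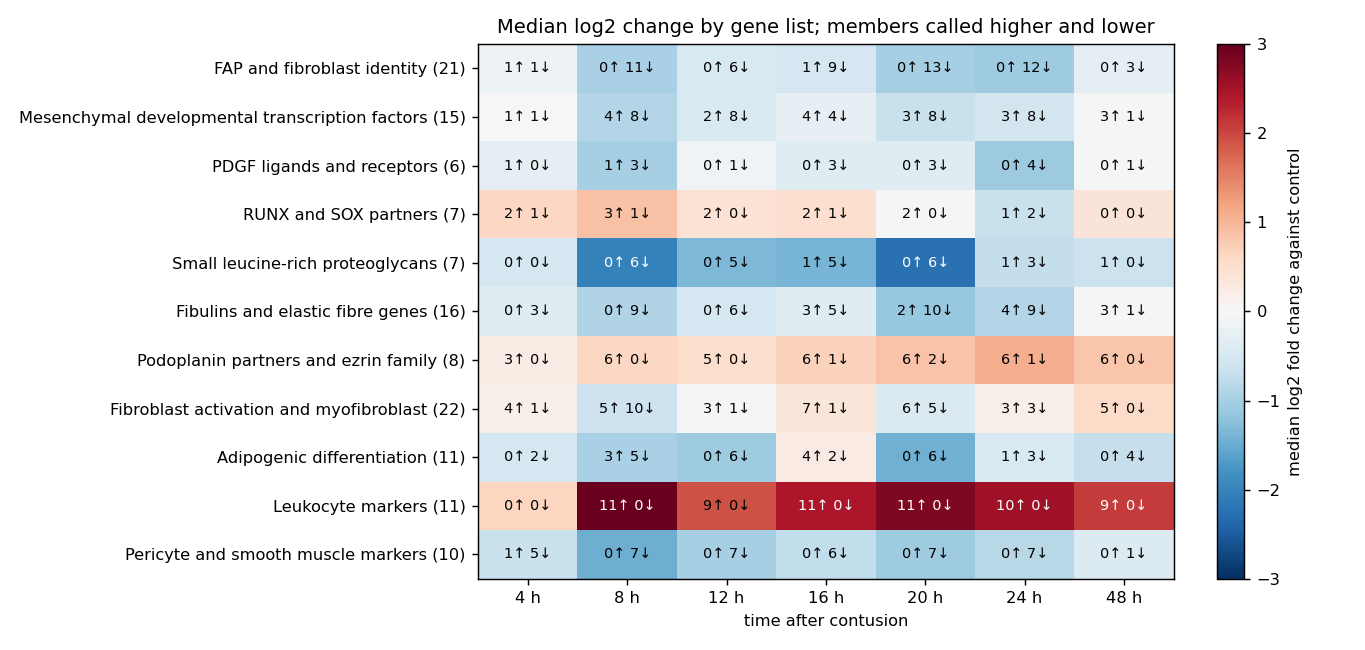
Median log2 fold change against control of gene lists (colour) at each time, with the number of members called higher and lower by edgeR written in each cell and the number measured in brackets. Small leucine-rich proteoglycans reach a median of -2.24 at 20 h, and leukocyte markers are called higher in 11 of 11 at 8 h. Some of these 11 may have a row only through injured libraries.

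PDPN (chromosome 6, 73019063 to 73050000) encodes podoplanin, which activated fibroblasts, some macrophages and lymphatic vessels carry. Its control median was 11.9 CPM, with 8 controls between 7.48 and 18.7 CPM and control 2 at 46.65 CPM. At 4 h the libraries read 22.75, 153, 146.5 and 26.2 CPM, so replicates 2 and 3 stood far above replicates 1 and 4. At 8 h they read 500, 369.8, 360.8 and 147.5 CPM, all above all controls. At 48 h replicates 1 and 3 read 101 and 62.3 CPM, above the controls, and replicates 2 and 4 read 29.0 and 18.6 CPM, inside their range.

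PDPN rose by 2.46 ± 0.51 (SE) on the log2 scale at 4 h (edgeR adjusted p = 0.00141) and by 4.44 ± 0.52 at 8 h (6.09e-08). It was 3.40, 3.77, 3.53 and 3.46 above control from 12 to 24 h and 1.74 ± 0.51 at 48 h (0.0152). Without 48 h replicate 1 or 3 the 48 h call was lost (highest adjusted p = 0.208), and against the 3 controls of the same library set the 48 h change was 1.86 (0.432). Of 6 markers of lymphatic endothelium 4 were measured, with a summed level of 16.5 to 54.2 CPM in the controls, 8.77 to 24.3 CPM at 8 h and 25.5 to 48.9 CPM at 24 h. PROX1, the master factor of lymphatic identity that slow fibres also express, fell at all 7 times (-3.05 at 8 h). FLT4 and RELN were not analysed here.

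Among partners of podoplanin and the ezrin family, which ties it to actin, 6 of 8 were called higher and none lower at 8 h, and 6 higher and 1 lower at 24 h. CD9, a tetraspanin that binds podoplanin, rose from 74.9 ± 28.5 (SD, n = 9) to 610 ± 149 CPM (SD, n = 4) at 8 h (3.03 ± 0.31, edgeR adjusted p = 8.74e-09). CD9 was also among the 3 genes whose 7 changes were nearest to those of PDPN, with GALNT15 and SOWAHB (mean absolute differences 0.237 to 0.373, against a median of 3.29). CD44, the hyaluronan receptor that podoplanin binds, rose by 3.33 at 8 h, and EZR, ezrin itself, by 1.01 at 8 h and 2.01 at 24 h.

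SOX9 (chromosome 12, 8642154 to 8647315) was low in the controls, at 0.615 to 2.92 CPM with a median of 1.30 CPM, which corresponded to 5 to 32 counts a library. At 4 h it read 3.89, 21.4, 38.8 and 5.82 CPM, at 8 h 59.7, 56.7, 57.5 and 16.7 CPM, and at 12 h 42.6, 15.6, 7.31 and 17.3 CPM. All 12 of these libraries were above all 9 controls. Each row of the table reached at least 101 counts in some library, which SOX9 did in injured libraries and in no control. Standing above the controls was thus in part a condition for SOX9 to have a row. At 24 h replicates 1 and 3 read 5.07 and 8.79 CPM, above the controls, and replicates 2 and 4 read 2.46 and 1.84 CPM, within them.

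SOX9 rose by 3.53 ± 0.55 (SE) on the log2 scale at 4 h (edgeR adjusted p = 6.61e-05) and by 4.96 ± 0.55 at 8 h (2.39e-08). The change was 3.76 and 3.60 in the next pair of times and 3.25 ± 0.55 at 20 h (1.57e-05). At 24 h the change was 1.54 ± 0.57 (0.0235), lost without 24 h replicate 1 or 3 (up to 0.187) and with limma-voom (1.13, 0.313), and at 48 h 1.43 ± 0.58 (0.0802). The gene nearest to SOX9 over the 7 times was DUSP5, a phosphatase of ERK (mean absolute difference 0.319 against a median of 3.19). Of 17 cartilage and tendon genes 4 were measured, and 3 of these were lower at 8 h, among them CILP (-1.87) and FMOD (-1.93). ACAN and COL2A1, targets of SOX9 in cartilage, were not analysed here.

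RUNX1 (chromosome 13, 198371835 to 198635648) had the largest fitted log2 change among the 8 genes at all 7 times. Its controls lay between 3.79 and 17.1 CPM with a median of 5.57 CPM, control 2 being the highest. At 4 h the libraries read 13.7, 136, 159 and 23.6 CPM, with replicate 1 inside the control range. At 8 h they read 355.5, 339.7, 325.7 and 185 CPM and at 24 h 155.5, 120.1, 157 and 144 CPM, all above all controls. At 48 h they were 118, 24.9, 67.9 and 11.3 CPM, and replicate 4 was inside the control range.

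RUNX1 rose by 3.64 ± 0.48 (SE) on the log2 scale at 4 h (edgeR adjusted p = 7.34e-06) and by 5.49 ± 0.50 at 8 h (8.55e-10). From 12 to 24 h the change was 4.53, 4.86, 4.61 and 4.42, and at 48 h 3.05 ± 0.48 (4.37e-05). Against the 3 controls of the same library set the 48 h change was 3.18 (edgeR adjusted p = 0.432), in a comparison where no gene was called. CBFB, the subunit with which RUNX proteins bind DNA, rose from 22.0 ± 3.63 (SD, n = 9) to 53.4 ± 6.53 CPM (SD, n = 4) at 8 h (log2 change 1.28, edgeR adjusted p = 6.19e-06) and by 1.52 at 16 h, and was not called at 48 h (0.45 ± 0.21, edgeR adjusted p = 0.125). TLE3, a co-repressor of the family, rose by 1.99 at 8 h. Of 7 measured partners of RUNX and SOX factors, 3 were higher and 1 lower at 8 h (25.8% and 28.2% of all genes). At 24 h 1 was higher and 2 lower (26.8% and 27.1%, list median -0.67), and at 48 h 0 were called. Over the 7 times TIMP1, GPRC5A and ANKRD1 were nearest to RUNX1 (0.349 to 0.432 against a median of 4.40).

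RUNX1 is also a leukocyte gene, so the levels of 11 leukocyte markers stand beside it. Their sum was 57.5 to 115 CPM at 4 h, within or barely above the 48.4 to 114 CPM of the controls, and 133 to 1100 CPM at 8 h. At 4 h edgeR called 0 of 11 (1 at an unadjusted p under 0.05, and DESeq2 called 1 and limma-voom 0), whereas at 8 h all 11 were higher. Each row of the table reached at least 101 counts in some library. Some of these markers may thus have a row only through injured libraries, which was not checked. Over all libraries 5 values of single leukocyte markers were 0. In 4 h replicates 2 and 3, where RUNX1 was 136 and 159 CPM, the marker sum was 114.5 and 110.4 CPM. It was lower, 73.9 and 57.5 CPM, in replicates 1 and 4, which were also the low libraries for RUNX1, PDPN and SOX9. At 8 h replicate 4 had the lowest RUNX1, PDPN and SOX9 of its time (185, 147.5 and 16.7 CPM) and the lowest marker sum (133.4 CPM), and at 48 h replicates 2 and 4 were low in all 4 as well. The part of leukocytes in these levels was not tested at any time.

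**Figure D5:**
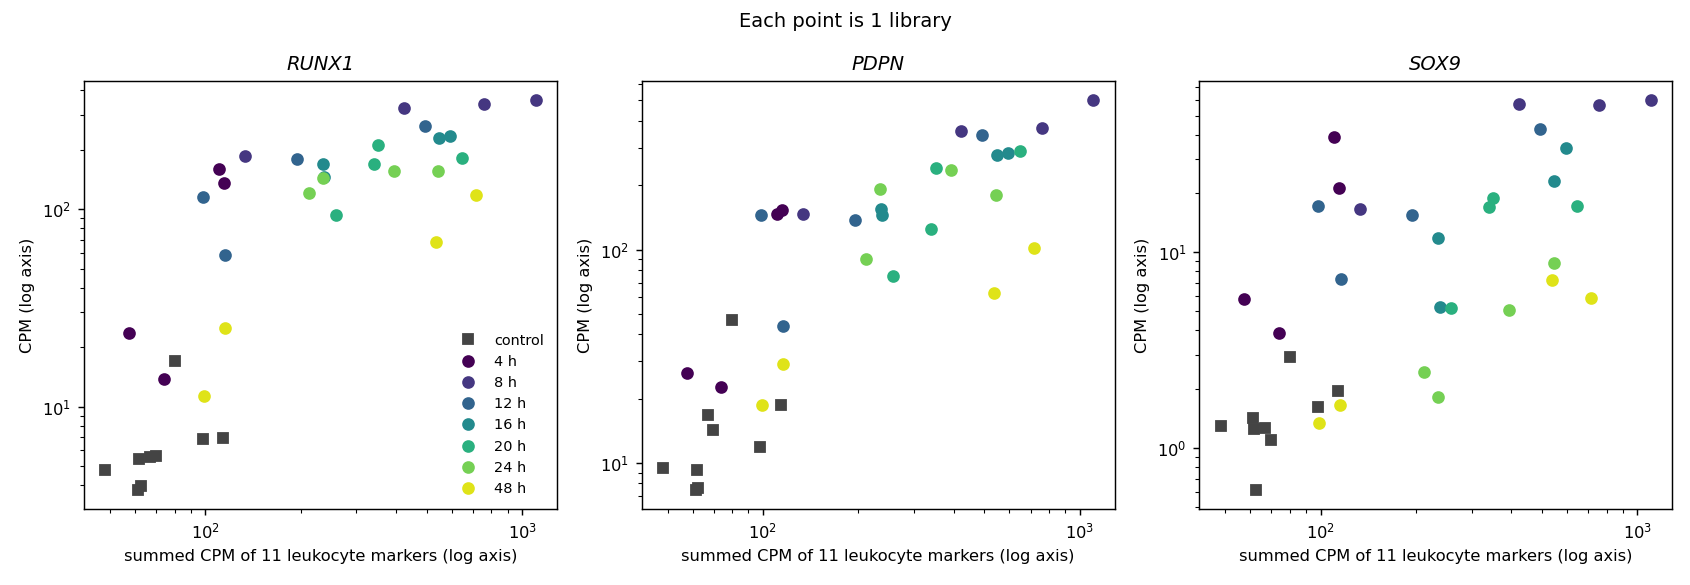
CPM of RUNX1, PDPN and SOX9 against the summed CPM of 11 leukocyte markers, both on log axes, 1 point per library; squares are controls. The 4 h replicates 2 and 3 reach 136 and 159 CPM of RUNX1 at marker sums of 114.5 and 110.4 CPM, near those of the highest controls.

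Between successive times few of the 8 genes were called. From 4 to 8 h RUNX1 (1.85 ± 0.59, edgeR adjusted p = 0.0173) and PDPN (1.98 ± 0.64, 0.0193) rose and DCN fell (-1.53, 0.0024), against 31.3% of all genes called. Without 4 h replicate 1 or without 4 h replicate 4 only 1 of these 3 calls was left, and with the library sets as a term none. The 4 h and 8 h libraries share no set. In the 5 later steps edgeR called 0 of the 8, while 0 to 4 had an unadjusted p under 0.05. Of all genes 12.1% were called from 8 to 12 h, 14.2% to 16 h, 2.16% to 20 h, 3.21% to 24 h and 19.5% to 48 h. Among the 8 genes PDPN from 24 to 48 h was nearest to a call (-1.72 ± 0.64, 0.0542), and passed with DESeq2 (0.0236) and limma-voom (0.0442).

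Ordered by mean CPM, neighbouring groups overlapped in range for all 8 genes, so no time stands apart from the next in that order. RUNX1 was highest at 8 h (301.5 ± 78.6 CPM, SD, n = 4), followed by 16, 20, 12, 24, 4 and 48 h and the controls. PDPN ran from 344.5 ± 146 CPM at 8 h through 16, 20, 24, 12, 4 and 48 h to the controls, and SOX9 from 47.6 ± 20.7 CPM at 8 h through 12, 16, 4, 20, 24 and 48 h. With the library sets as a term the log2 change of RUNX1 was 4.92 at 8 h and 5.45 at 20 h. That of PDPN was 3.57 at 8 h and 4.69 at 20 h. For SOX9 it was 4.26 at 8 h, 4.36 at 12 h and 4.52 at 4 h (SE of these values 0.57 to 0.82). Of the 8 h libraries 3 share a set with 2 controls. DCN was highest at 4 h (785.1 ± 200.6 CPM) and lowest at 20 h (182 ± 65.75 CPM), and OSR1 highest at 4 h (23.0 ± 17.6 CPM) and lowest at 24 h (5.86 ± 1.41 CPM).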

How the data were processed

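Raw counts per gene, as deposited by the authors, formed 1 table of 9418 rows and 37 columns, whose names match the sample titles. Each row reached at least 101 counts in some library, so column totals are not sequencing depth. Libraries were made with the NEBNext Ultra RNA kit, per the labels' protocols. The submitters' processing notes name HISAT2 2.2.1, HTSeq, Trimmomatic, FastQC and MultiQC, and the build Sscrofa11.1; annotation release and strand setting are not stated. In R 4.3.3, edgeR 4.0.16 (limma 3.58.1) applied TMM and filterByExpr and fitted a robust quasi-likelihood model to all 37 libraries with group as the only factor. Each time was tested against control and against the time before, with Benjamini-Hochberg adjustment over 9411 genes. The SE of an edgeR change is the absolute log2 change divided by the square root of its F value, as edgeR itself prints none. The members, lists and library sets (column totals above 20 M, C1QBP above 8, NDUFAF8 below 4 and ND6 at most 32 CPM, in that order) were chosen with earlier results of these data known. From each list up to 4 genes with the smallest p over the 7 times could be named, and 3 genes nearest to each member by mean absolute difference of the 7 log2 changes, among genes with a mean of at least 5 CPM. Genes nearest over the controls and the slow fibre list were chosen after values were seen. DESeq2 1.42.0, limma-voom, other scalings, filters and library choices were alternatives. The fit was tested on simulated counts drawn independently for each library, so shared animals and library sets were not covered. Coordinates are RefSeq gene spans. No sequence of the genes is shown. Floors of 3 counts cover counting error only. All pairs of libraries of 1 group differed by more than sampling noise (lowest chi-square per degree of freedom 16.1).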

Additional observations from a re-analysis of the deposited data

Results flagged for a closer look

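In 6 of 64 combinations of gene and group, 1 library lay far from the others by Dixon's test, where chance gives about 1 in 20. OSR1 at 4 h reached 49.2 CPM in replicate 3, beside 16.1 CPM in the next. SOX9 was 16.7 CPM in 8 h replicate 4, beside 56.7 CPM in the next, and 5.22 CPM in 20 h replicate 1, beside 17.1 CPM. FBLN1 was 35.1 CPM in 16 h replicate 3, beside 24.3 CPM. Control 2 was the highest control for RUNX1 (17.1 CPM, the next at 6.91 CPM) and for PDPN (46.6 CPM, the next at 18.7 CPM). Control 2 also held the lowest DCN of the controls (317.7 CPM).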

How the results depend on the processing

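The number of the 8 genes called against control stayed within 1.5 times of the value given at 4, 8, 12, 16 and 20 h and over the 7 times together, under every alternative that could be fitted. It moved to 5 at 24 h (1 library against 3) and 0 at 48 h (4 against 3) with controls of the same library set, where edgeR called 0 genes in all at 48 h. Leaving out each library gave 4, 6 to 7, 4 to 5, 5 to 6, 6 to 7, 6 to 8 and 1 to 4 for the 7 times in order (at 48 h 1 without replicate 1 or 3) and 7 over all times. For the 6 steps between times it gave 1 to 4, 0 to 1, 0, 0 to 1, 0, and 0 to 4, in order. From 4 to 8 h the sets as a term gave 0. From 8 to 12 h DESeq2 gave 1 (DCN), and so did leaving out 12 h replicate 1 or 8 h replicate 3. From 12 to 16 h scaling by column totals gave 1 (FBLN1). From 16 to 20 h column totals, DESeq2 and limma-voom gave 1 (FBLN1), as did leaving out 20 h replicate 1 or control 1. From 24 to 48 h DESeq2 gave 2 and limma-voom, sets as a term and the replicate block 1. Leaving out 48 h replicate 1 gave 4, and leaving out control 2, 4 h replicates 1, 3 or 4, 12 h replicates 1 or 3, 20 h replicates 1 or 4 or 24 h replicate 2 gave 1.

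No called change reversed. With column totals the median log2 change over all genes was -0.18, -0.13, -0.04, 0.31, 0.29, 0.46 and 0.34 from 4 to 48 h. With TMM it lay between -0.07 and -0.02 at these times. Between 12 and 16 h it was 0.37 with column totals and -0.007 with TMM, and between 20 and 24 h 0.15 and -9e-04. Under column totals PDGFRA at 8 h (edgeR adjusted p = 0.106) and DCN at 16 h (0.0796) were no longer called, and SOX9 at 48 h was (0.0179). Deviations from group means correlated at a median of 0.0427 in 112 same-numbered pairs of libraries and -0.00846 in differently numbered pairs. The lowest same-numbered value was -0.604, and 10 of 28 injured libraries correlated best with their own number. As no label links libraries to animals, these values cannot show whether replicate numbers mark shared animals. With the replicate block the counts were 4, 7, 5, 5, 6, 7 and 2 from 4 to 48 h, DCN at 16 h, SOX9 at 24 h and PDPN at 48 h not being called. The 4 h libraries could not be compared with controls of their set. The causes of these shifts were not tested.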

Other observations

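Satellite cell genes, those of the muscle's stem cells and their progeny, were highest in sum at 24 h. The summed level of 4 of 7 listed markers was 122 to 175 CPM in the controls and 278 to 371 CPM at 24 h, where 3 were called higher by edgeR: MYOG (log2 change 1.05), MYOD1 (1.13) and VCAM1 (1.41). PAX7, a marker of satellite cells, was called higher at 4 h (0.76, edgeR adjusted p = 0.0364) and was not called at 24 h. Of 7 blood endothelium markers 3 were lower and none higher at 8 and 24 h, EMCN, endomucin, among them (-1.18 at 8 h), while CDH5, the cadherin of vessel walls, was higher at 16 h (0.57).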
